A study of Mus musculus with 2 samples.

Results

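The p53 pathway was examined as 10 genes: Trp53, which encodes the transcription factor p53, and 9 genes that p53 is known to switch on. They were found by exact gene symbol in the deposited count table, where all 10 had a row among 24532 genes, and all 10 reached an average of 5 CPM (counts per 1000000 of the scaled library) over both libraries, as did 9935 genes in total. The libraries came from C57BL/6 mouse cardiac myofibroblasts, the contractile, matrix-secreting fibroblasts of injured heart, isolated 3 days after myocardial infarction. The siBcat1 cells received siRNA against Bcat1 and the siControl cells control siRNA, both at 12.5 nM with a lipid reagent. Culture went on for 72 hours. The product of Bcat1 is the cytosolic aminotransferase for leucine, isoleucine and valine. Each group had 1 library, so there was no replicate spread and no test. The siBcat1 arm had 1 siRNA treatment, so an effect of the siRNA on other transcripts and an effect of lower Bcat1 cannot be told apart. Intervals in brackets are exact 95% binomial (Clopper-Pearson) intervals of the log2 fold of siBcat1 over siControl and cover counting error only; they are too narrow if both mates of a read pair were counted, which is not stated.

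p53 is made continuously and destroyed through MDM2, the ubiquitin ligase that it induces, so its protein level is set largely after its mRNA has been made. DNA damage, nucleolar stress and other insults free p53 from MDM2, and it then binds paired decamers of DNA near its target genes. The products of those genes hold the cell cycle, repair DNA, restrain p53 itself or start mitochondrial apoptosis. In fibroblasts, lasting p53 activity with high p21 is known from senescence. Messenger RNA levels of targets are a common readout of the factor, although most targets also answer to other signals.

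The decamer of the p53 response element (3 purines, C, 2 bases that are A or T, G, 3 pyrimidines) was searched in the RefSeq promoter sequences of GRCm38.p6, which run from 250 bases before to 50 bases after a start site. The decamer is its own reverse complement, so 1 search reads both strands. Of the 10 genes, 8 were examined, through 11 promoters, since some genes have several start sites; Trp53inp1 and Pmaip1 were not analysed here for sequence. A match lay in 6 of the 11 promoters (54.5%) and in 2745 of all 32851 promoters (8.4%); among the other p53 targets described below, 6 of 37 promoters (16.2%) held one. The matches are shown because they are the letters p53 is known to read; in these sequences of 30 bases, written 5′ to 3′ on the gene's strand, the capitals mark the decamer.
Trp53 (chr11:69580274-69580303, plus strand): acccacggaaGGACTTGCCCttacttgtta
Mdm2 (chr10:117710925-117710954, minus strand): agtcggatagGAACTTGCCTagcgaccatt
Ccng1 (chr11:40755452-40755481, minus strand): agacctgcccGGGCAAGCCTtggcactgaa
Cdkn1a, first match (chr17:29090896-29090925, plus strand): tcctgggtggGGACTAGCTTtctggccttc
Cdkn1a, second match (chr17:29090918-29090947, plus strand): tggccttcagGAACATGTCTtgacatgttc
Gadd45a (chr6:67037428-67037457, minus strand): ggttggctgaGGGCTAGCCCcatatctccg
Bax (chr7:45467080-45467109, minus strand): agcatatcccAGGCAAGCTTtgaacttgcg
Both Cdkn1a matches lay before the more upstream of its 2 annotated start sites, at bases -73 and -51, and the promoter of the other start site held none. The 6 matching genes had log2 folds, given below, from -0.10 (Cdkn1a) to 1.13 (Bax), whereas the lowest and the highest of the 10 genes, Trp53inp1 and Pmaip1, were not among those searched. The search took single decamers and did not ask for the pair that p53 binds. A match is a stretch of letters and not a measured binding site. The absence of one in the Bbc3 and Phlda3 windows says only that these letters are not in those windows.

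The siBcat1 library held 104581819 counts and the siControl library 127309329. Bcat1 itself had 99 counts in siBcat1 and 8891 in siControl, a log2 fold of -6.11 [-6.41 to -5.83] and -5.20 after the length adjustment described below. All 9 fibroblast markers were measured, with a summed level of 14953 CPM in siBcat1 and 30216 CPM in siControl, of which Col1a1, Col1a2 and Col3a1 made 10676 CPM in siBcat1 and 25231 CPM in siControl and the other 6 made 4277 CPM in siBcat1 and 4985 CPM in siControl. The leukocyte gene Ptprc and the macrophage genes Adgre1 and C1qa had 0 counts in both libraries, and the 8 macrophage markers summed to 28.8 CPM in siBcat1 and 10.3 CPM in siControl, mostly from Lyz2. Of the others, Cd68 had 155 counts in siBcat1 and 66 in siControl, and Cd14 had 326 in siBcat1 and 202 in siControl. Csf1r had 272 in siBcat1 and 370 in siControl, and Itgam had 3 in siBcat1 and 0 in siControl. The 6 cardiomyocyte markers summed to 10.5 CPM in siBcat1 and 46.4 CPM in siControl, nearly all from Tnnt2, while Myh6, Nppa and Ryr2 had 0 counts in both. The 5 endothelial markers summed to 47.8 CPM in siBcat1 and 46.2 CPM in siControl, mostly from Tek. The 5 pericyte and smooth muscle markers summed to 31.1 CPM in siBcat1 and 88.6 CPM in siControl, mostly from Notch3. Folds of all genes followed transcript length, with a Spearman correlation of -0.65 across 9887 genes, which are not independent replicates. Folds are therefore accompanied by length-adjusted values, from which the trend over all measured genes was subtracted. In bulk RNA, fewer cells that express a gene and less RNA per cell cannot be told apart.

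The 10 genes differed among themselves. In scaled counts, Bax and Pmaip1, which promote apoptosis, and Gadd45a, a growth arrest gene, were at least 2-fold higher in siBcat1. Trp53inp1, a p53 cofactor gene, was at least 2-fold lower. The factor gene Trp53, its inhibitor gene Mdm2 and the cell cycle inhibitor gene Cdkn1a lay within 1.1-fold of equal in scaled counts. Their length-adjusted values were -0.14, 0.22 and -0.35 in that order. On the log2(TPM + 1) scale they had -0.37, -0.37 and -0.60, where the median of all genes was -0.47. Thus 3 of 10 were higher by 2-fold or more, against 5.58% of all measured genes, and 1 of 10 was lower by 2-fold or more, against 13.0% of all measured genes. The counts at 1.5-fold were also 3 and 1 of 10, against 17.6% of all measured genes higher and 25.6% lower. After the length trend was removed, 1 of 10 (Pmaip1) was past 2-fold upward, against a background of 4.29%, and 0 of 10 were past 2-fold downward, against 5.30%. In scaled counts 8 of 10 lay above 0, and on the log2(TPM + 1) scale 4 did, with 0 past 2-fold upward, against 1.27% of 8811 genes that averaged at least 5 TPM, and 1 (Trp53inp1) downward, against 22.4%. The median log2 fold was 0.29 over the 10 genes and -0.06 over all measured genes, and the length-adjusted median was 0.09 over the 10 genes and -0.00 over all.

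**Figure D1:**
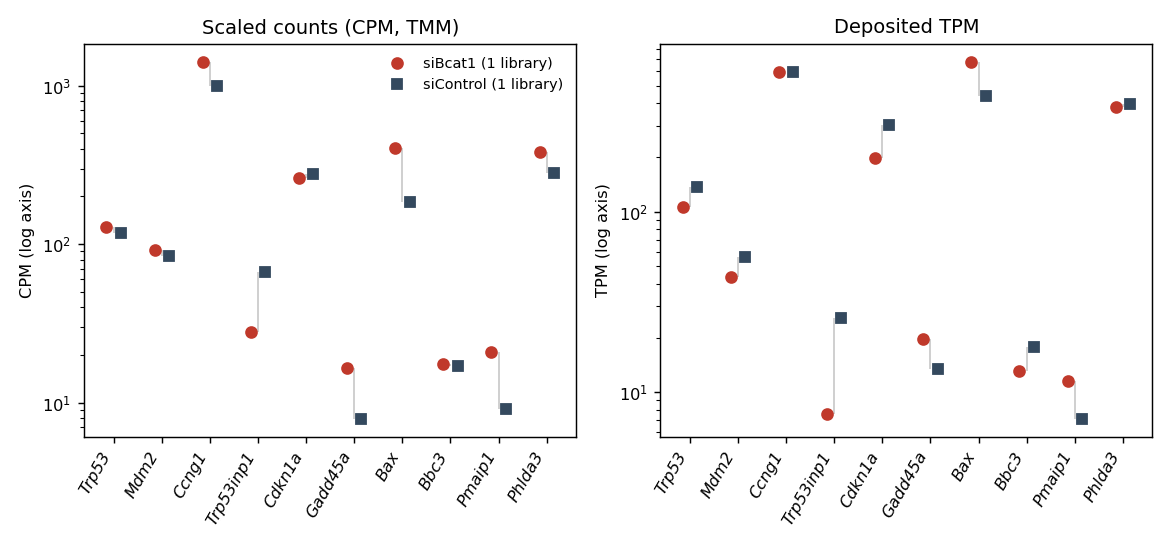
Level of each gene in the siBcat1 library (red circles) and the siControl library (dark squares), in CPM after TMM scaling on the left and in the deposited TPM on the right, both on log axes, with 1 library per group and no error bars. Bax, Pmaip1 and Gadd45a are higher and Trp53inp1 lower in siBcat1 in both panels, while Ccng1 has 1417 against 997 CPM but nearly equal TPM.

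Levels of different genes are compared in TPM (transcripts per 1000000), the authors' values corrected for length. In siBcat1 the order from high to low was Bax, Ccng1, Phlda3, Cdkn1a, Trp53, Mdm2, Gadd45a, Bbc3, Pmaip1 and Trp53inp1. The siControl order was Ccng1, Bax, Phlda3, Cdkn1a, Trp53, Mdm2, Trp53inp1, Bbc3, Gadd45a and Pmaip1. Bax and Ccng1 exchanged the first place, and Trp53inp1 stood last in siBcat1 and seventh in siControl. With 1 library per group it cannot be said which neighbours in these orders differ beyond the spread between cultures. The 10 genes together summed to 2052 TPM in siBcat1 and 1988 TPM in siControl, and the top gene held 33.0% of that sum in siBcat1 (Bax) and 29.8% in siControl (Ccng1).

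Trp53 (chromosome 11, 69580359 to 69591873, plus strand, GENCODE M21 on GRCm38) had 13082 counts in siBcat1 and 15458 in siControl. After scaling these were 129 CPM in siBcat1 and 118 CPM in siControl, a log2 fold of 0.13 [0.10 to 0.17]. The sign did not hold: the log2 fold was -0.37 on the log2(TPM + 1) scale and -0.14 after length adjustment. In TPM the factor gene had 106 in siBcat1 and 137 in siControl. TPM lowered the median of all genes by 0.41 on the log2 scale relative to scaled counts, and relative to the median of all genes Trp53 was at 0.10 in TPM and 0.20 in scaled counts. Of its paralogues, Trp63 had 11 counts in siBcat1 and 5 in siControl, and Trp73 had 0 counts in siBcat1, which allows up to 3, and 5 in siControl. Trp53 was therefore the only gene of its family with more than 11 counts in these libraries.

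Among genes that act back on p53, Mdm2 (chromosome 10, 117688875 to 117710758, minus strand), the ligase gene, had 9265 counts in siBcat1 and 11042 in siControl. Its scaled level was 91.5 CPM in siBcat1 and 84.0 CPM in siControl, a log2 fold of 0.12 [0.08 to 0.16], which was 0.22 after length adjustment and -0.37 in TPM. In TPM, Mdm2 and Trp53 kept nearly the same proportion, with a ratio of Mdm2 to Trp53 of 0.412 in siBcat1 and 0.413 in siControl. That ratio is not corrected for the trend with length, and the length-adjusted values differed, at 0.22 for Mdm2 and -0.14 for Trp53. The paralogue Mdm4, which encodes a p53-binding inhibitor, had 1084 counts in siBcat1 and 3881 in siControl, a log2 fold of -1.46 [-1.56 to -1.37] and -0.63 after length adjustment. The TPM ratio of Mdm4 to Trp53 was 0.0207 in siBcat1 and 0.0623 in siControl. It too is not corrected for the trend with length, and the length-adjusted values lay closer, at -0.63 for Mdm4 and -0.14 for Trp53. The transcript used for Mdm4 is 7105 bases long, that for Mdm2 3099 bases and that for Trp53 1867 bases.

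Ccng1 (chromosome 11, 40748552 to 40755311, minus strand) encodes cyclin G1, which brings a phosphatase to MDM2. It had 143518 counts in siBcat1 and 131019 in siControl, the highest counts of the 10 genes in both libraries. At 1417 CPM in siBcat1 and 997 CPM in siControl, its log2 fold was 0.51 [0.50 to 0.52]. Its transcript of 3512 bases lies in class 6 of 10 equal classes of genes by length, with a median log2 fold of -0.19, and its length-adjusted value of 0.71 was the second highest of the 10. In TPM, however, it had 594 in siBcat1 and 593 in siControl. Ccng2, the related cyclin gene, had a log2 fold of 0.41 and a length-adjusted value of 0.42, with 31.9 TPM in siBcat1 and 34.2 TPM in siControl.

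Trp53inp1 (chromosome 4, 11156431 to 11174379, plus strand) encodes a stress-induced protein that helps p53 and autophagy. It had 2845 counts in siBcat1 and 8783 in siControl. The level was 28.1 CPM in siBcat1 and 66.8 CPM in siControl, a 2.38-fold lower value in siBcat1 with a log2 fold of -1.25 [-1.31 to -1.19]. In scaled counts no other of the 10 genes was at least 1.5-fold lower. Only 8.22% of measured genes had a lower fold. Its transcript, at 5404 bases the longest of the 10, lies in length class 9 of 10, where the median log2 fold was -0.66 and 29.4% of genes were at least 2-fold lower. The length-adjusted value was -0.68, still the lowest of the 10, and TPM gave 7.58 in siBcat1 and 25.6 in siControl, a log2 fold of -1.64. The paralogue Trp53inp2, with a transcript of 3979 bases, had 307 CPM in siBcat1 and 305 CPM in siControl, a log2 fold of 0.01 [-0.01 to 0.03] and a length-adjusted value of 0.31.

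**Figure D2:**
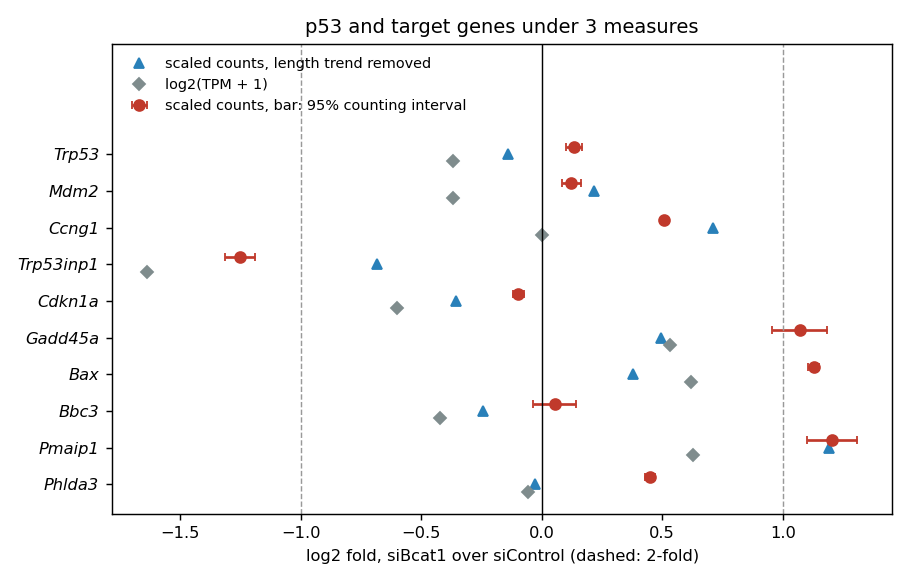
Log2 fold of siBcat1 over siControl for each gene from scaled counts (red circles, with exact 95% counting intervals), from scaled counts with the length trend removed (blue triangles) and from log2(TPM + 1) (grey diamonds); the dashed lines mark 2-fold. Bax, Pmaip1 and Gadd45a lie right of 0 and Trp53inp1 left of 0 by all 3 measures, Trp53 changes side between them, and Pmaip1 alone stays past 2-fold after length adjustment.

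The cell cycle genes of the set differed from each other. Cdkn1a (chromosome 17, 29090976 to 29100727, plus strand) encodes p21, the inhibitor of cyclin-dependent kinases through which p53 holds cells before S phase. It had 26417 counts in siBcat1 and 36650 in siControl, or 261 CPM in siBcat1 and 279 CPM in siControl. The log2 fold of -0.10 [-0.12 to -0.07] turned to 0.03 with upper-quartile factors, and was -0.35 after length adjustment and -0.60 in TPM. Relative to the median of all genes, Cdkn1a was at -0.04 in scaled counts and -0.13 in TPM. Its relatives Cdkn1b and Cdkn1c, which encode p27 and p57, had log2 folds of 0.37 and 1.01, with length-adjusted values of 0.27 and 0.75. Cdkn1a was the most abundant of the 3, with a TPM ratio of Cdkn1a to Cdkn1b of 5.91 in siBcat1 and 8.16 in siControl. AC167363.2 on the opposite strand shares 7.7% of the exon bases of Cdkn1a and is not among the counted genes.

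Gadd45a (chromosome 6, 67035096 to 67037457, minus strand) encodes a small protein that binds PCNA and cell cycle kinases after stress. It had 1681 counts in siBcat1 and 1039 in siControl, the fewest of the 10 genes in both. At 16.6 CPM in siBcat1 and 7.91 CPM in siControl it was 2.10-fold higher in siBcat1, with a log2 fold of 1.07 [0.96 to 1.18], an interval that includes 2-fold, and with library totals as the scaling its log2 fold of 0.98 was short of 2-fold. Its transcript of 1223 bases falls in length class 1 of 10, the shortest, where the median log2 fold was 0.74 and 25.3% of genes were at least 2-fold higher. The length-adjusted value was 0.50. Gadd45b and Gadd45g, the other genes of the family, have transcripts of 1284 and 1071 bases and had log2 folds of -0.75 and 0.32, with length-adjusted values of -1.29 and -0.33. Gadd45a was thus higher and Gadd45b lower by either measure, and the TPM ratio of Gadd45a to Gadd45b was 1.49 in siBcat1 and 0.422 in siControl. The gene E230016M11Rik on the opposite strand shares 19.1% of the exon bases of Gadd45a, and it had 21 counts in siBcat1 and 11 in siControl.

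The genes of mitochondrial apoptosis included the highest folds of the set. Bax (chromosome 7, 45461697 to 45466898, minus strand) encodes the pore-forming protein of the outer mitochondrial membrane. It had 40792 counts in siBcat1 and 24220 in siControl, or 403 CPM in siBcat1 and 184 CPM in siControl. The fold was 2.19 and the log2 fold 1.13 [1.10 to 1.15], above that of 96.5% of measured genes. With a transcript of 867 bases, Bax also lies in the shortest class, and its length-adjusted value was 0.38. TPM gave 677 in siBcat1 and 440 in siControl, a log2 fold of 0.62, which was 1.09 relative to the median of all genes. The protein-coding gene Gm45808 on the same strand shares 12.2% of the exon bases of Bax. It is not among the counted genes, so reads from it cannot be told apart here. Bak1, which encodes another pore former, has a transcript of 2387 bases and had a log2 fold of -0.19 [-0.23 to -0.16] and a length-adjusted value of -0.30. Bok, of the same family, had 0.12 and -0.34 length-adjusted.

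Pmaip1 (chromosome 18, 66458533 to 66465565, plus strand) encodes NOXA, a BH3-only protein that binds MCL1. It had 2128 counts in siBcat1 and 1198 in siControl, or 21.0 CPM in siBcat1 and 9.11 CPM in siControl. It was 2.30-fold higher in siBcat1, the highest fold of the 10, with a log2 fold of 1.20 [1.10 to 1.31]. Unlike Bax and Gadd45a, Pmaip1 has a transcript of medium length, 2727 bases, in class 5 of 10, where the median log2 fold was -0.04 and 3.75% of genes were at least 2-fold higher. The length-adjusted value was 1.19. In TPM it had 11.6 in siBcat1 and 7.12 in siControl, a log2 fold of 0.63 and of 1.10 relative to the median of all genes.

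Bbc3 (chromosome 7, 16308393 to 16318205, plus strand) encodes PUMA, the BH3-only protein that binds all the survival proteins of the family. It had 1785 counts in siBcat1 and 2231 in siControl, or 17.6 CPM in siBcat1 and 17.0 CPM in siControl. The log2 fold of 0.05 [-0.04 to 0.14] was not told apart from 0 by counting error alone, its length-adjusted value was -0.24, and 5 of 9 alternatives gave it the other sign. The proportion of the 2 BH3-only genes differed between the libraries, with a TPM ratio of Bbc3 to Pmaip1 of 1.13 in siBcat1 and 2.50 in siControl. Phlda3 (chromosome 1, 135766119 to 135769136, plus strand), which encodes a repressor of the kinase AKT, had 38726 counts in siBcat1 and 36845 in siControl. Its levels were 382 CPM in siBcat1 and 280 CPM in siControl, a log2 fold of 0.45 [0.43 to 0.47] that was -0.03 after length adjustment and -0.06 in TPM. Phlda1, a related gene, had 0.33 and 0.09 after length adjustment, and Phlda2 had 25 counts in siBcat1 and 3 in siControl.

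**Figure D3:**
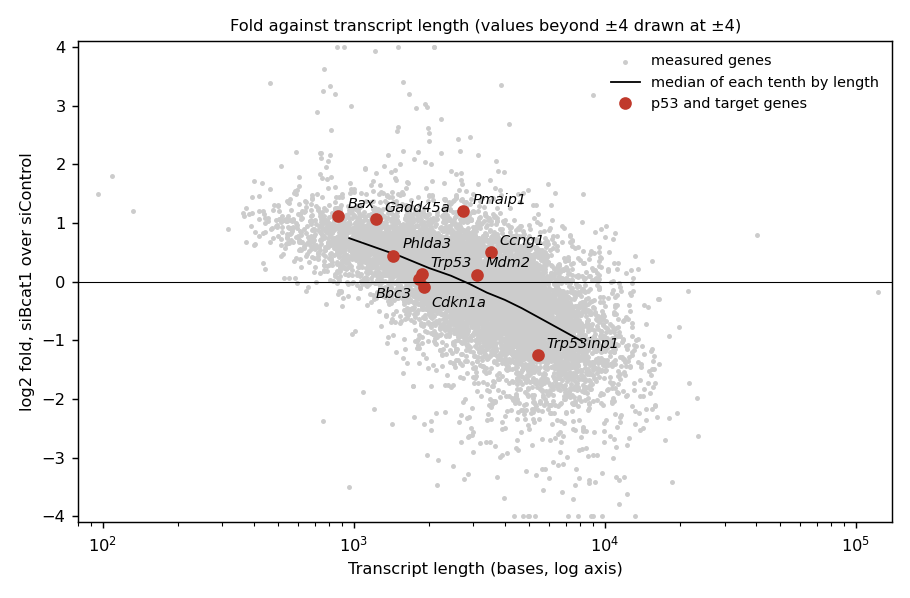
Log2 fold of siBcat1 over siControl against transcript length (log axis) for measured genes (grey), with the median of each of 10 equal classes of genes by length (black line) and the p53 gene set (red, named). Bax and Gadd45a stand among short transcripts whose folds are mostly above 0, Trp53inp1 among long ones whose folds are mostly below 0, and Pmaip1 and Ccng1 stand above the line at medium lengths.

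Genes that control p53 held some of the lowest folds of the pathway. Of 16 measured, 2 (12.5%) passed 2-fold upward and 6 (37.5%) passed it downward, against 5.58% and 13.0% of all measured genes, with a median log2 fold of -0.43 at a median transcript length of 3954 bases. After length adjustment 0 passed 2-fold upward and 2 downward, against 4.29% and 5.30% of all genes, and the median was -0.26, with all measured genes at -0.00. The 2 that stayed past 2-fold were Hipk2, a p53 kinase gene, with 131 counts in siBcat1 and 1562 in siControl (log2 fold -3.20, length-adjusted -2.30), and Sirt1, a p53 deacetylase gene, with 272 counts in siBcat1 and 1857 in siControl (log2 fold -2.40, length-adjusted -2.11). Both averaged at least 5 CPM only through siControl. Hipk2 had 1.29 CPM in siBcat1 and 11.9 CPM in siControl, and Sirt1 had 2.69 CPM in siBcat1 and 14.1 CPM in siControl. Huwe1, a large ubiquitin ligase gene with a transcript of 14579 bases, had a log2 fold of -2.36 and a length-adjusted value of -0.94. The 2 higher genes were Rpl5 and Rpl11, whose ribosomal proteins bind MDM2, with log2 folds of 1.02 and 1.14 and length-adjusted values of 0.82 and 0.38; their reads may be shared with near-identical copies. Cdkn2a, whose ARF product also binds MDM2, had a log2 fold of 0.28 and a length-adjusted value of -0.45.

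The kinases and mediators that pass DNA damage on to p53 were measured in full, 19 of 19. Of these, 0 passed 2-fold upward and 5 (26.3%) downward, against 5.58% and 13.0% of all measured genes, with a median log2 fold of -0.49 at a median length of 5027 bases. After length adjustment 0 were past 2-fold in either direction, against 4.29% upward and 5.30% downward over all genes, and the median was -0.09. The lowest were Prkdc with a log2 fold of -1.46, Trp53bp1 with -1.20 and Atm, the kinase gene at the head of the pathway, with -1.19. Their length-adjusted values were -0.16, -0.13 and -0.10, from transcripts of 12647, 9621 and 9787 bases in that order.

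Other p53 targets lay on both sides of 0 in scaled counts. Of 34 listed, 28 were measured, of which 1 (3.57%) was past 2-fold upward and 2 (7.14%) downward, against 5.58% and 13.0% of all measured genes. The median log2 fold was -0.03, with 13 above 0 and 15 below 0, and the length-adjusted median was -0.06. Rrm2b, a ribonucleotide reductase subunit gene for DNA repair, had 385 counts in siBcat1 and 2101 in siControl, a log2 fold of -2.07 [-2.23 to -1.92] and a length-adjusted value of -1.67. With 3.80 CPM in siBcat1 and 16.0 CPM in siControl, Rrm2b averaged at least 5 CPM only through siControl. Sesn2, which encodes a sestrin that restrains mTORC1 and is also induced by ATF4, had 1445 counts in siBcat1 and 4513 in siControl, a log2 fold of -1.27 [-1.35 to -1.18] and a length-adjusted value of -1.07. Dcxr, a carbonyl reductase gene, was the 1 higher gene, with 9643 counts in siBcat1 and 5069 in siControl, a log2 fold of 1.30 [1.25 to 1.35], and a length-adjusted value of 0.57 for its transcript of 892 bases. On the log2(TPM + 1) scale 0 of these 28 targets passed 2-fold upward and 6 downward. Of the 24 targets that averaged at least 5 TPM, 0 and 5 did. The shares of all 8811 genes that averaged at least 5 TPM were 1.27% upward and 22.4% downward on that scale.

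**Figure D4:**
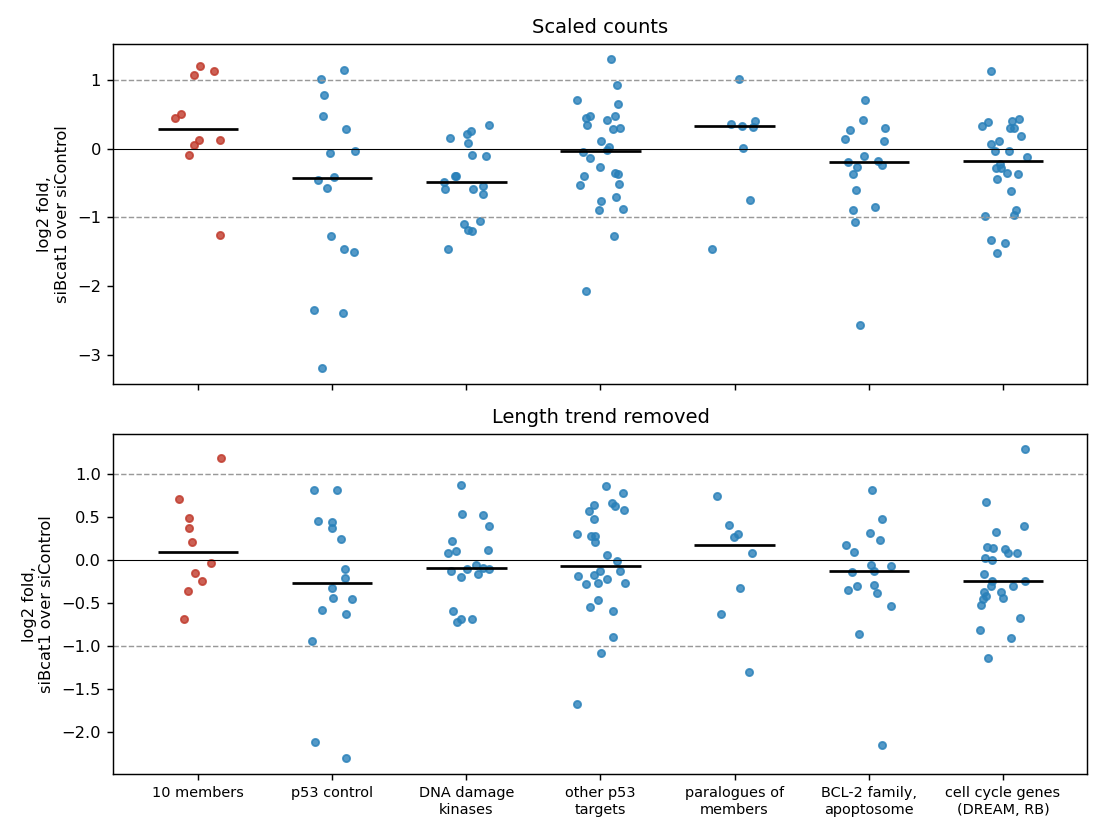
Log2 folds of siBcat1 over siControl for the 10 genes (red) and 6 companion lists (blue), 1 point per measured gene and a black bar at the median, from scaled counts above and with the length trend removed below; the dashed lines mark 2-fold. The damage kinase and p53 control lists have medians of -0.49 and -0.43 above and of -0.09 and -0.26 below.

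The BCL-2 family and the apoptosome genes were described beside Bax and the BH3-only genes. Of 21 listed, 17 were measured, and 0 passed 2-fold upward and 2 (11.8%) downward, against 5.58% and 13.0% of all measured genes, with a median log2 fold of -0.19 and a length-adjusted median of -0.13. Bmf, another BH3-only gene, had 286 counts in siBcat1 and 2204 in siControl, a log2 fold of -2.57 [-2.75 to -2.39] and a length-adjusted value of -2.15. With 2.82 CPM in siBcat1 and 16.8 CPM in siControl, Bmf averaged at least 5 CPM only through siControl. Bcl2l2, a survival gene, had -1.06 and -0.86 length-adjusted, and Apaf1, the scaffold of the apoptosome and itself a p53 target, had -0.89 and -0.13 length-adjusted. Bax was set against 3 survival genes, which were picked by role after their values had been seen. The TPM ratio of Bax to Bcl2 was 173 in siBcat1 and 63.1 in siControl, that of Bax to Bcl2l1 was 7.66 in siBcat1 and 2.98 in siControl, and that of Bax to Mcl1 was 7.81 in siBcat1 and 4.40 in siControl. These TPM ratios are not corrected for the trend of folds with transcript length. Bcl2, with a transcript of 7191 bases, had a log2 fold of -0.60 and a length-adjusted value of 0.24. With that length, the longest matched, its part of the ratio changed sign with the length correction. In siBcat1 Bcl2 had 13.8 CPM and 3.91 TPM, and Trp53inp1, with 5404 bases, had 28.1 CPM and 7.58 TPM. The authors' TPM thus imply a transcript for Bcl2 nearer in length to that of Trp53inp1. A shorter length would lower the adjusted value of Bcl2, and whether its sign would still change is not shown here. Length-adjusted values of Bax, Bcl2l1 and Mcl1 were 0.38, -0.29 and 0.48, so by that measure Mcl1 lay above Bax.

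Cell cycle genes that p21 holds down through the DREAM and RB repressors were measured in full, 26 of 26. Of these, 1 (3.85%) passed 2-fold upward and 3 (11.5%) downward, shares near the 5.58% and 13.0% of all measured genes, with a median log2 fold of -0.17. After length adjustment 1 was higher (Birc5, whose length is in doubt, as described below) and 1 lower, against 4.29% and 5.30% of all genes. The adjusted median was -0.24. Mki67, the proliferation marker, had 1323 counts in siBcat1 and 4930 in siControl, a log2 fold of -1.52 and a length-adjusted value of -0.41 for a transcript of 10061 bases. Bub1b, a spindle checkpoint gene, had -1.37 and -1.13 length-adjusted, and Foxm1, a mitotic transcription factor gene, had -1.33 and -0.91 length-adjusted. Birc5, which encodes survivin, was the 1 higher gene, with a log2 fold of 1.13 and a length-adjusted value of 1.29. That adjusted value rests on a transcript of 3334 bases, the longest matched. In siBcat1 Birc5 had 130 CPM and 195 TPM, and Rrm2 of the same list, with 2193 bases, had 134 CPM and 90.1 TPM. The authors' TPM thus imply a shorter transcript for Birc5 than for Rrm2. A shorter length would lower the adjusted value, and whether Birc5 would stay past 2-fold is not shown here. Cdkn1a, with a log2 fold of -0.10 in scaled counts and -0.35 after length adjustment, was therefore set beside a cell cycle list of mixed folds.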

How the data were processed

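RNA was measured in 1 siBcat1 and 1 siControl library, grouped by the treatment label. Per the labels' protocols, RNA from a column kit went into a stranded Illumina mRNA kit. FastQC, Trimmomatic, HISAT2, StringTie and, as genome, mm10 stand in the list of tools and builds, per the submitters' processing notes; the sources used here state no version, role or use of strand in counting. The deposited table holds raw counts per gene, and the authors also deposited TPM values, named so per the file headers. Both total counts are in the report; PCR duplicates, and read pairs if both mates were counted, make counting intervals too narrow.

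Counts were scaled with TMM factors (edgeR 4.0.16, R 4.3.3) of 0.969 for siBcat1 and 1.03 for siControl. Genes that averaged 5 CPM or more were called measured, and 2-fold was a rule of size. A gene at 0 was set at 3 counts. Transcript lengths (the longest GENCODE M21 transcript matched by RefSeq accession) were found for 9887 genes, and a lowess curve (fraction 0.3, 3 iterations, statsmodels 0.14.6) was subtracted. Other scalings tried were library totals, upper-quartile factors and size factors from DESeq2 1.42.0; other choices were TPM with pseudocounts of 1 or 0.1, minima of 1 or 20 CPM or none, other thresholds and implied lengths. Named genes were the 10 genes, their paralogues and up to 3 measured genes per list with the largest absolute log2 fold; Birc5, Cdkn2a, Rpl5, Rpl11, Bcl2, Bcl2l1 and Mcl1 were added after their values were seen. The genes and lists were chosen with earlier results of these data known. Scripts were tested on simulated data.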

Additional observations from a re-analysis of the deposited data

How the results depend on the processing

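No paired analysis was possible because each group has 1 library. DESeq2 size factors moved none of the summary counts and medians beyond their tolerance (a ratio of 1.5 for counts, the typical counting interval for medians). Under TPM with a pseudocount of 1, 0 of the 10 genes were 2-fold higher, with a median of -0.21; of the other targets 0 were higher and 5 lower (median -0.52), and of all genes 112 were higher and 1971 lower. A pseudocount of 0.1 gave 0 (-0.21), 0 and 6 (-0.54), and 120 and 2211. Length adjustment left 1 of the 10 higher and 0 lower (median 0.095), 0 other targets higher and 524 genes lower; with implied lengths, added after seeing the data, these were 1, 0 (0.15), 0 and 532. The medians of the 10 genes and of the other targets were 0.20 and -0.13 with library totals, where 2 of the 10 genes were higher because Gadd45a had 0.98, and 0.42 and 0.094 with upper-quartile factors, where 2 other targets were higher; a minimum of 1 CPM also gave 2. At 20 CPM, 7 of the 10 genes were measured, with 1 higher (median 0.13), 1 other target lower, and 352 genes higher and 752 lower, since fewer genes are tested. Without a minimum, 2 other targets were higher and 4 lower (median -0.091), with 2084 genes higher and 3086 lower. At 1.5-fold, 4 and 6 other targets and 1750 and 2544 genes were higher and lower. At 3-fold, 0 and 0 of the 10 genes, 0 and 1 of the other targets, and 94 and 452 genes were. With whole intervals past 2-fold, 2 of the 10 genes were higher and 1 lower, as were 437 and 1110 of all genes. Of single folds, Bax, Pmaip1, Gadd45a, Ccng1 and Trp53inp1 kept their sign in all alternatives run, with ranges of 0.38 to 1.26, 0.63 to 1.33, 0.50 to 1.20, 0.00 to 0.76 and -1.75 to -0.64, while Trp53, Mdm2, Cdkn1a, Bbc3 and Phlda3 changed sign in 4, 2, 1, 5 and 3. Apart from the rules of size and of filtering, the cause of these shifts was not tested. Counting depth limits the call of Gadd45a and the direction of Bbc3, and the lack of replicates limits every fold.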
